A study of Mus musculus with 3 samples.

Results

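The 8 genes of sterol synthesis and its control described here, Hmgcs1, Idi1, Fdps, Fdft1, Sqle, Lss, Cyp51 and Insig1, were followed across donor T cells of the mouse spleen 7 days after allogeneic bone marrow transplantation. They were taken by name, 8 of 18029 genes in the count table, and counts were summed over cells for each pool of mice, for CD4+ and CD8+ T cells and for each of the authors' cell clusters. All 8 passed the filter on low counts in both lineages, in which 10568 genes (CD4+) and 10841 genes (CD8+) were tested. B6D2F1 recipients were conditioned with total body irradiation and given, from B6 donors, 5000000 bone marrow cells and 2000000 T cells, together with 1000 TEa cells, T cells carrying 1 transgenic receptor for an alloantigen peptide. Treatment ran each day from day 0 to day 6, with saline or with cyclosporine (CSA) at a dose of either 5 or 50 mg/kg. CSA is a calcineurin inhibitor used to prevent graft-versus-host disease. Each group held 6 mice, and spleens were combined from 2 mice at a time into 3 pools told apart by hashtag antibodies.

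The 3 pools of a group went through the same 5′ droplet capture, with sorted CD4+ and CD8+ T cells mixed at 1:1, so that capture and treatment cannot be told apart. The pools held 10091 CD4+ and 10833 CD8+ T cells after the 280 TEa cells were set aside. Summed unique molecular identifiers (UMIs, counted molecules) ran from 3994968 to 7592334 per CD4+ pool and from 4392100 to 11454636 per CD8+ pool. Cd3e, a subunit of the T cell receptor complex, was at 789 to 1175 counts per 1000000 UMIs (CPM) in CD4+ pools and 798 to 1322 CPM in CD8+ pools. Cd8a was at 0 in each CD4+ pool and Cd4 at 0 in each CD8+ pool. These zeros may come from how cells were assigned to a lineage, which was not tested, so they are no check of purity. Cd8b1, the other CD8 subunit, was not at 0 in CD4+ pools: it was at 117 to 128 CPM with saline, 93.3 to 102 CPM at 5 mg/kg and 23.4 to 29.04 CPM at 50 mg/kg, against 1016 to 3286 CPM in CD8+ pools. These Cd8b1 values are scaled like the levels per pool and lineage given further on. The median UMIs per cell differed between the groups: 2966 to 3173.5 in CD4+ pools given saline, 4135 to 4630 at 5 mg/kg and 5794.5 to 6300 at 50 mg/kg. The CD8+ ranges were 4026 to 4254, 5381.5 to 6612.5 and 6656 to 8065. Erythroid marker genes summed to 3.21 to 14.8 CPM in CD4+ pools given saline and 27.7 to 37.0 CPM at 50 mg/kg, with all 6 of the 6 markers detected in each group. In CD8+ pools, the 7 B cell markers summed to 189 to 212 CPM with saline and 570 to 743 CPM at 50 mg/kg, of which 6 had counts in each group. Fits on cells of 4000 to 8000 UMIs are given beside some of the results they changed or in the closing sections. The part of RNA from other cells was not tested.

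Cells make sterols from acetyl-CoA through the mevalonate pathway. Hmgcs1 makes the substrate of its rate-limiting step, Idi1 and Fdps build farnesyl diphosphate, Fdft1 joins farnesyl units into squalene, and Sqle, Lss and Cyp51 carry squalene on through lanosterol toward cholesterol. Transcription of the pathway is driven by the factor SREBP2 when membrane sterol is low. Insig1 is both a target of SREBP and its brake, because it holds the SREBP carrier Scap in the endoplasmic reticulum. T cells that are activated and divide are known to raise this programme to build membrane.

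In the mm10 genome (GENCODE vM21) the genes are protein coding and lie apart. Hmgcs1 is at chr13:119690379-119708260 and Idi1 at chr13:8885501-8892451, both on the plus strand. Fdps is at chr3:89093588-89101959 and Fdft1 at chr14:63145150-63179578, both on the minus strand. Sqle is at chr15:59315077-59331192 and Lss at chr10:76531588-76557138, both on the plus strand. Cyp51 is at chr5:4081145-4104746 on the minus strand and Insig1 at chr5:28071363-28078662 on the plus strand. Fdps overlaps a protein-coding model on its own strand, Gm43738, and Fdft1 and Cyp51 overlap Ctsb and Akap9 on the opposite strand. How reads in these overlaps were counted is not given in the sources used here, so the levels of these genes are less certain.

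Promoters of 5 of the 8 genes (Hmgcs1, Idi1, Lss, Cyp51, Insig1) were matched in RefSeq (GRCm38.p6). Those of Hmgcs1, Insig1 and Cyp51 are shown because these genes stand for the start of the pathway, its brake and a late enzyme that fell in CD8+ T cells. Each runs 5′ to 3′ up to the gene's start or the RefSeq start, whichever comes first. The capitals mark 3 motifs on either strand: CACCCCAC, a form of the sterol regulatory element, CCAAT, the box bound by NF-Y, and GGGCGG, the box bound by Sp1.
Hmgcs1 promoter, chr13:119690101-119690350, plus strand: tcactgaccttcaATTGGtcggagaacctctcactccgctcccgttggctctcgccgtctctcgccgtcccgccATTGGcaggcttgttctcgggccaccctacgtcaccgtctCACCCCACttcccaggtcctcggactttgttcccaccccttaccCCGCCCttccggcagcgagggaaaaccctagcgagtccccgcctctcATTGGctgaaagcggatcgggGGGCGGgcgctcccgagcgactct
Cyp51 promoter, chr5:4104747-4104947, minus strand: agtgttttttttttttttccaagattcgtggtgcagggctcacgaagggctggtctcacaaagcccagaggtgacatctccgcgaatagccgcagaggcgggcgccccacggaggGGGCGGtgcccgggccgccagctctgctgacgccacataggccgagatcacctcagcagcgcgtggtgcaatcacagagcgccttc
Insig1 promoter, chr5:28071162-28071362, plus strand: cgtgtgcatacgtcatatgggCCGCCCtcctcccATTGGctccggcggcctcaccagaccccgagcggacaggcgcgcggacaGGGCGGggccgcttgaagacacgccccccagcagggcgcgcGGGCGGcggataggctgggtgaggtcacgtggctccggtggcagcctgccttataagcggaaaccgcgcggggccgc

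In the RefSeq windows from 250 bases before to 50 after the start, CACCCCAC was found in 1 of the 5 promoters, that of Hmgcs1, and in 2.87% of all 32851 promoters. The longer TCACNCCAC, which overlaps that match, was also found in Hmgcs1 alone among the 5 and in 1.24% of all. A further form, TCACNCGAC, was in none of the 5 and in 0.310% of all. CCAAT and GGGCGG were each found in 5 of the 5 promoters, against 37.4% and 35.7% of all. These are matches of letters in the windows and describe no binding.

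Each of the 8 genes was detected in each pool and lineage, from 10 to 42 UMIs a pool for Fdps to 94 to 427 for Hmgcs1. Levels per pool and lineage are given below as CPM scaled by the trimmed mean of M values (TMM), a scaling that sets the bulk of genes to no change. Levels by cluster, of cycling and other cells and of TEa cells are per total UMIs, without this scaling. Tests are edgeR quasi-likelihood tests across all genes of a lineage, with Benjamini-Hochberg adjusted p-values called under 0.05. Changes are on the log2 scale with their standard errors (SE) over 3 pools a group.

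At 5 mg/kg of CSA, Hmgcs1, Idi1, Cyp51 and Insig1 fell in both lineages and Sqle fell in CD8+ T cells. In CD4+ T cells 4 of the 8 genes were called, all lower, where 51.7% of all genes tested were called, 26.1% higher and 25.6% lower. In CD8+ T cells 5 were called, all lower, where 60.2% of all genes were called, 29.9% higher and 30.3% lower. The share of the 8 that was called was thus near that of all genes, and the count by itself is no result about them. The median log2 change over the 8 genes was -0.29 in CD4+ and -0.56 in CD8+ T cells, beside -0.01 and 0.00 over all genes tested.

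Among the mevalonate enzymes, Hmgcs1 in CD8+ T cells was at 43.9, 42.9 and 44.4 CPM in the saline pools and at 27.4, 33.1 and 30.8 CPM at 5 mg/kg. The groups did not overlap, and the fall was 0.51 ± 0.09 (SE, adjusted p = 0.00014). The CD4+ values of Hmgcs1 were 34.8, 36.6 and 38.3 CPM with saline and 24.3, 27.3 and 33.4 CPM at 5 mg/kg, a log2 change of -0.35 ± 0.11 (adjusted p = 0.011).
The CD4+ groups did not overlap either, the third CSA pool lying just under the lowest saline pool. Without the first pool at 5 mg/kg the CD4+ change was -0.26 and no longer passed (adjusted p = 0.071).
Idi1, which isomerises the 5-carbon building block of the pathway, was at 26.5, 26.7 and 28.02 CPM in CD8+ saline pools and at 15.5, 21.5 and 16.1 CPM at 5 mg/kg (-0.61 ± 0.12, adjusted p = 0.00025). For CD4+ T cells the levels of Idi1 were 21.0, 19.7 and 22.6 CPM and 14.2, 15.6 and 13.9 CPM (-0.54 ± 0.12, adjusted p = 0.00059). In both lineages each CSA pool was below each saline pool. Over the alternative fits the adjusted p of Idi1 ran up to 0.055 in CD4+ and 0.047 in CD8+ T cells.

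Fdps, the farnesyl diphosphate synthase, did not pass in either lineage at this dose, with log2 changes of 0.58 ± 0.31 (CD4+) and 0.38 ± 0.21 (CD8+). It had the fewest UMIs of the 8 genes, and the CD4+ pools at 5 mg/kg spread from 2.26 to 6.20 CPM.

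Of the squalene and lanosterol enzymes, Sqle and Cyp51 were lower in CD8+ T cells. Sqle, the squalene epoxidase, was at 15.5, 17.995 and 14.8 CPM with saline and at 6.41, 10.5 and 9.94 CPM at 5 mg/kg, the 3 CSA pools all lying below the saline pools (-0.80 ± 0.14, adjusted p = 0.00012). Its CD4+ change of -0.23 ± 0.17 did not pass. Cyp51, the lanosterol demethylase, was at 31.7, 29.3 and 30.1 CPM in CD8+ saline pools and at 17.3, 19.5 and 17.8 CPM at 5 mg/kg (-0.73 ± 0.14, adjusted p = 0.00025).
Cyp51 in CD4+ T cells was at 32.1, 25.2 and 28.7 CPM and at 23.5, 22.6 and 20.02 CPM (-0.38 ± 0.11, adjusted p = 0.0078), again without overlap. That call was lost without the third pool at 5 mg/kg (-0.30, adjusted p = 0.065), and over the alternative fits its adjusted p ran up to 0.23. Fdft1, the squalene synthase, and Lss, the lanosterol synthase, did not pass in either lineage, with changes between -0.20 and 0.18.

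Insig1, the sterol-regulated brake, had the lowest log2 change of the 8 genes in both lineages at this dose. CD8+ levels were 12.8, 15.3 and 15.1 CPM with saline and 8.88, 7.60 and 8.03 CPM at 5 mg/kg (-0.83 ± 0.13, adjusted p = 2.9e-05). CD4+ levels were 14.7, 18.5 and 15.4 CPM and 12.1, 7.91 and 11.8 CPM (-0.62 ± 0.16, adjusted p = 0.0032). No CSA pool reached the lowest saline pool in either lineage.

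Among CD8+ cells outside the cycling clusters, 3 of the 5 calls at 5 mg/kg were kept, those of Insig1 (-0.85), Hmgcs1 (-0.68) and Idi1 (-0.56). Cyp51 (-0.26, adjusted p = 0.33) and Sqle (-0.64, adjusted p = 0.060) did not pass there.

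**Figure D1:**
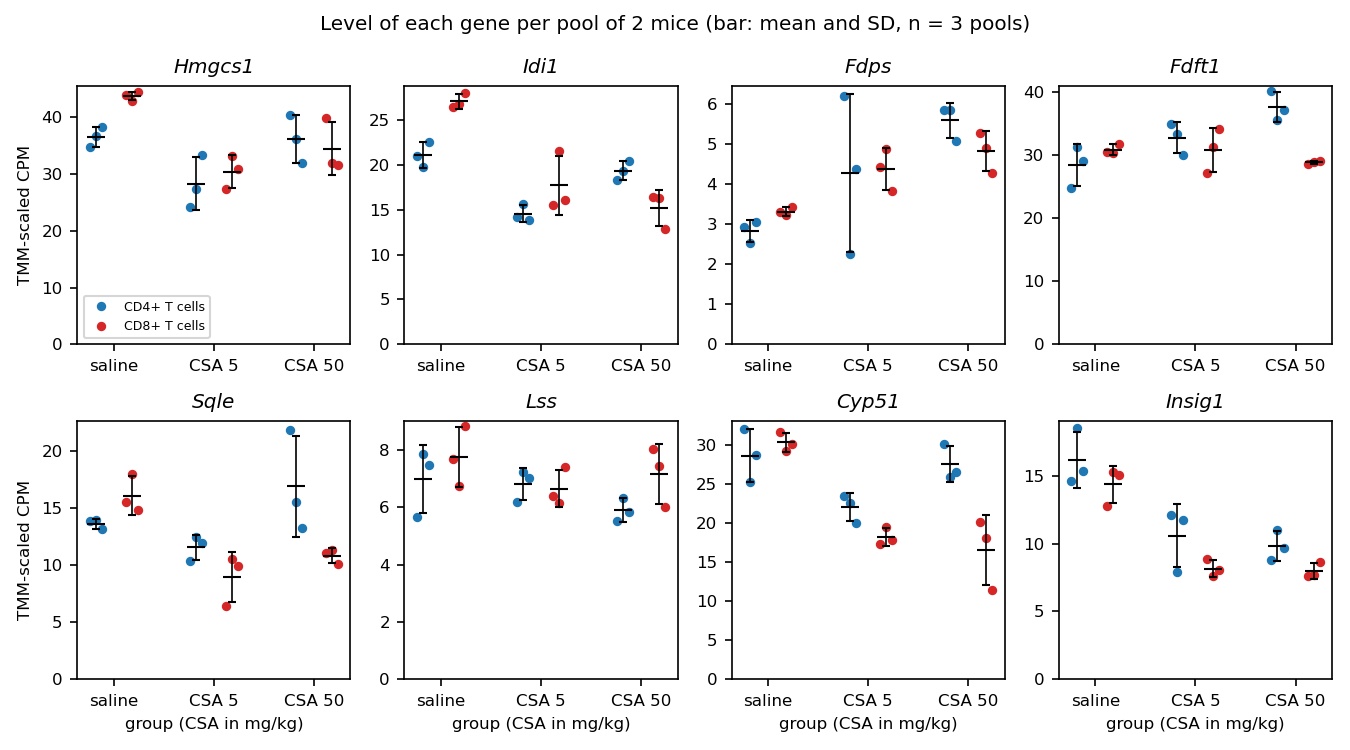
TMM-scaled CPM (linear axes from 0) of the 8 genes in each pool, by group and lineage; points are pools of 2 mice and bars give the mean and SD over 3 pools. The CD8+ points of Hmgcs1, Idi1, Sqle, Cyp51 and Insig1 are lower in both CSA groups than with saline, while the CD4+ points of Hmgcs1, Idi1 and Cyp51 at 50 mg/kg lie near those with saline.

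At 50 mg/kg Cyp51, Idi1, Insig1, Sqle and Hmgcs1 fell in CD8+ T cells and Fdps rose, while in CD4+ T cells Insig1 fell and Fdps and Fdft1 rose. The 6 of 8 called in CD8+ T cells are a share near the 74.0% of all genes called there, made up of 37.1% higher and 36.9% lower. The 3 of 8 called in CD4+ T cells are a smaller share than the 70.5% of all genes, made up of 34.7% higher and 35.8% lower. The median log2 change of the 8 genes was -0.46 in CD8+ and -0.04 in CD4+ T cells, beside 0.00 and -0.01 over all genes tested.

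In CD8+ T cells at 50 mg/kg, Cyp51 was at 20.1, 18.1 and 11.4 CPM, all below its saline pools (-0.90 ± 0.14, adjusted p = 1e-05). Idi1 was at 16.4, 16.3 and 12.9 CPM, again below its saline pools (-0.85 ± 0.11, adjusted p = 2.7e-06). Insig1 was at 7.63, 7.70 and 8.68 CPM (-0.84 ± 0.12, adjusted p = 6.2e-06). These 3 genes had fold values between 0.53 and 0.56 of saline.
Sqle was at 11.1, 11.3 and 10.1 CPM, each under the lowest saline pool (-0.58 ± 0.13, adjusted p = 0.00062). Hmgcs1 was at 39.9, 31.9 and 31.7 CPM, also without overlap, and its change of -0.35 ± 0.09 passed (adjusted p = 0.0015). Fdft1 (-0.10 ± 0.08) and Lss (-0.13 ± 0.16) did not pass.

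Outside the cycling clusters 2 of these CD8+ genes were called at 50 mg/kg, Insig1 (-0.94) and Idi1 (-0.46, adjusted p = 0.049). Cyp51 (-0.32, adjusted p = 0.16), Sqle (-0.19, adjusted p = 0.48) and Hmgcs1 (-0.16, adjusted p = 0.28) did not pass in those cells, and Fdps had too few counts to be tested. In cells of 4000 to 8000 UMIs Hmgcs1 fell short (-0.25, adjusted p = 0.069), and the other calls were kept.

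In CD4+ T cells at 50 mg/kg, Hmgcs1 was at 40.5, 36.2 and 31.9 CPM, on both sides of the saline pools (-0.02 ± 0.10). Cyp51 was at 30.1, 25.9 and 26.6 CPM (-0.05 ± 0.10) and Idi1 at 18.3, 19.4 and 20.5 CPM (-0.12 ± 0.10), each overlapping its saline pools. Sqle was at 21.9, 15.5 and 13.3 CPM against 13.8, 13.9 and 13.1 CPM with saline, a change of 0.30 ± 0.15 that did not pass (adjusted p = 0.088).
Insig1 was the exception: it was at 8.78, 11.01 and 9.70 CPM, below all saline pools (-0.73 ± 0.16, adjusted p = 0.00029). Its fall in CD4+ T cells did not differ detectably from that in CD8+ T cells, with a difference of -0.15 ± 0.19 (adjusted p = 0.65).

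Fdps was higher at 50 mg/kg in both lineages. Its CD4+ levels were 2.93, 2.52 and 3.05 CPM with saline and 5.86, 5.84 and 5.08 CPM at 50 mg/kg (0.98 ± 0.28, adjusted p = 0.0036). Its CD8+ levels were 3.29, 3.22 and 3.44 CPM and 5.27, 4.91 and 4.29 CPM (0.53 ± 0.19, adjusted p = 0.019), a call lost without the second saline pool (0.50, adjusted p = 0.055) or without the first pool at 50 mg/kg (0.46, adjusted p = 0.063), and by DESeq2 (adjusted p = 0.098). Fdft1 was higher in CD4+ T cells, at 24.7, 31.3 and 29.0 CPM with saline and 40.1, 35.5 and 37.0 CPM at 50 mg/kg (0.39 ± 0.09, adjusted p = 0.00083). The higher groups did not overlap saline for either gene.

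These rises depended on the scaling. With counts scaled to total UMIs, the median of all genes moved to -0.37 and -0.45 in CD4+ and to -0.43 and -0.53 in CD8+ T cells at 5 and 50 mg/kg. The calls of all genes at 50 mg/kg then split into 1599 higher and 6239 lower in CD4+ T cells, against 3669 and 3785 with TMM, and into 1690 and 6794 in CD8+ T cells, against 4021 and 4003. On that scale Fdft1 in CD4+ T cells was at -0.05, Fdps in CD8+ T cells at -0.0011 and Fdps in CD4+ T cells at 0.54 (adjusted p = 0.087), while 5 genes (CD4+) and 7 genes (CD8+) were called lower at 50 mg/kg. Cyp51 (-0.49), Idi1 (-0.56) and Hmgcs1 (-0.46) in CD4+ T cells were then called lower, and each lay near the shift of all genes. Per cell, the 8 genes together gave 68.5 ± 4.8 UMIs per 100 CD4+ T cells with saline, then 61.4 ± 3.3 at the lower and 95.7 ± 4.3 at the higher dose (SD, n = 3 pools). The CD8+ values were 104 ± 4.0, 81.2 ± 12.8 and 86.6 ± 1.9. Sequencing depth per cell moved with dose, and its part in these values cannot be told apart from treatment.

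**Figure D2:**
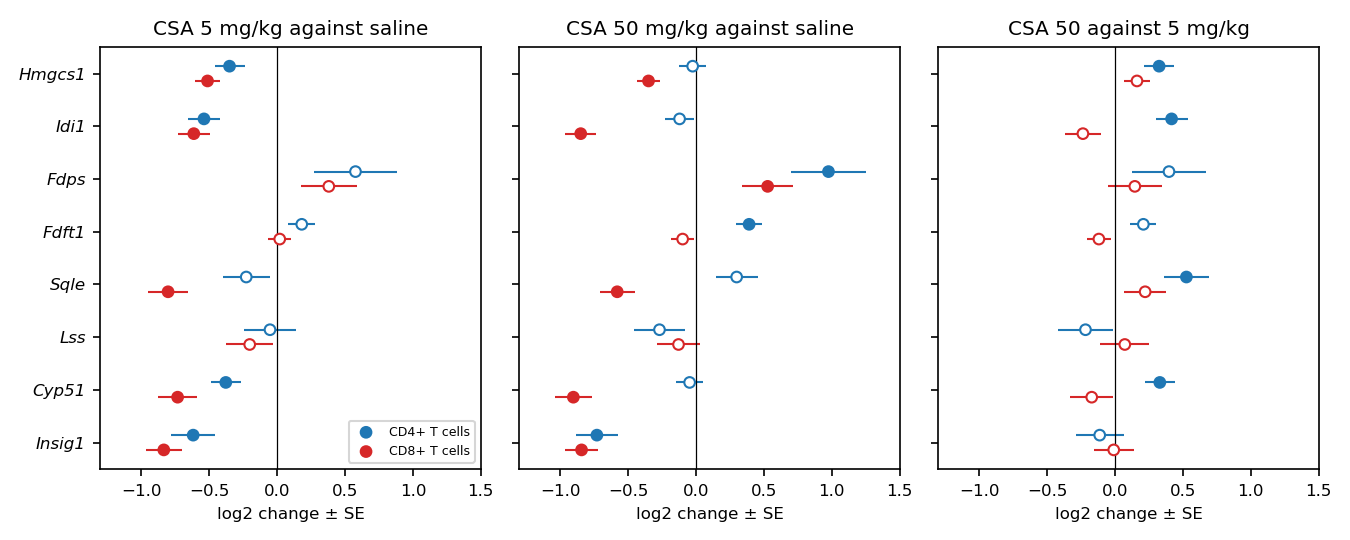
Log2 change ± SE of the 8 genes in CD4+ and CD8+ T cells for CSA 5 mg/kg against saline, 50 mg/kg against saline and 50 against 5 mg/kg; filled points have an edgeR adjusted p under 0.05. At 50 mg/kg the CD8+ points of Cyp51 (-0.90), Idi1 (-0.85) and Sqle (-0.58) stay left of 0, while the CD4+ points are at -0.05, -0.12 and 0.30.

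Between the CSA doses, 4 genes were higher at 50 than at 5 mg/kg in CD4+ T cells, where 41.2% of all genes were called and 19.9% were called higher: Sqle (0.53 ± 0.17, adjusted p = 0.016), Idi1 (0.42 ± 0.12, adjusted p = 0.0072), Cyp51 (0.33 ± 0.11, adjusted p = 0.023) and Hmgcs1 (0.33 ± 0.11, adjusted p = 0.022). For Idi1 each pool at 50 mg/kg was above each pool at 5 mg/kg. Without the first CD4+ pool at 50 mg/kg, which had the highest Sqle, Cyp51 and Hmgcs1 of its group, Idi1 alone passed. Sqle was then at 0.30, Cyp51 at 0.26 and Hmgcs1 at 0.24, with adjusted p-values of 0.12, 0.092 and 0.11. Without the first pool at 5 mg/kg, Sqle was at 0.47 and Hmgcs1 at 0.24 (adjusted p = 0.060 and 0.11). Hmgcs1 also fell short without the second pool at 5 mg/kg (adjusted p = 0.079), and Cyp51 without the third (adjusted p = 0.14). Total UMI scaling kept Idi1 and Sqle alone (adjusted p = 0.027 and 0.039). DESeq2 and cells of 4000 to 8000 UMIs each called 2 of the 8 genes, higher at 50 mg/kg. Over the alternative fits the adjusted p of Idi1 ran up to 0.50. In CD8+ T cells edgeR called none of the 8 genes between the doses, and none had an unadjusted p under 0.05, where 41.0% of all genes were called. DESeq2 called none either. Total UMI scaling and cells of 4000 to 8000 UMIs each called 1 CD8+ gene, lower at 50 mg/kg. Cells outside the cycling clusters gave 1 that was higher. The intervals (2 SE on each side) ran from -0.50 to 0.03 for Idi1 and from -0.09 to 0.54 for Sqle, so that a CD8+ difference of up to those sizes could have gone undetected. The comparisons at 5 and 50 mg/kg share their saline pools.

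The difference between the lineages was tested as an interaction in 18 summed libraries, with the pool as a block because each pool gave both a CD4+ and a CD8+ library. At 50 mg/kg the change in CD8+ T cells was lower than in CD4+ T cells for 5 of the 8 genes, where 19.3% of all 11177 genes were called and 10.5% were called lower in CD8+. The CD8+ change minus the CD4+ change was -0.90 ± 0.17 for Sqle (adjusted p = 0.00042), -0.89 ± 0.14 for Cyp51 (adjusted p = 7.2e-05), -0.76 ± 0.14 for Idi1 (adjusted p = 0.00035), -0.52 ± 0.12 for Fdft1 (adjusted p = 0.0034) and -0.35 ± 0.11 for Hmgcs1 (adjusted p = 0.019). All 5 are enzymes of the pathway, as are all of the 8 genes but Insig1. Lss (0.11 ± 0.25), Insig1 and Fdps (-0.48 ± 0.34) did not pass. With total UMI scaling the same 5 genes passed, at -0.41 to -0.95. The call for Hmgcs1 was lost without the first saline pool (adjusted p = 0.071) or the second pool at 50 mg/kg (adjusted p = 0.093). Among cells outside the cycling clusters none of the 8 was called, with differences of -0.60 for Cyp51, -0.58 for Sqle and -0.34 for Idi1. In cells of 4000 to 8000 UMIs Cyp51 (-1.01) and Idi1 (-0.99) passed, while Sqle (-0.95, adjusted p = 0.061), Fdft1 (-0.36, adjusted p = 0.23) and Hmgcs1 (-0.27, adjusted p = 0.37) did not. DESeq2 called 1, Cyp51. At 5 mg/kg edgeR called none of the 8, where 3.57% of all genes were called, although Sqle (-0.62 ± 0.20, adjusted p = 0.088) and Cyp51 (-0.38 ± 0.16, adjusted p = 0.23) had unadjusted p-values of 0.0048 and 0.026. DESeq2 called 0 at that dose.

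The lineages were also compared within each group. In the saline group CD8+ T cells were higher than CD4+ T cells of the same pools in Idi1 (0.45 ± 0.09, adjusted p = 0.00034), Hmgcs1 (0.34 ± 0.07, adjusted p = 0.00047) and Sqle (0.33 ± 0.12, adjusted p = 0.026), where 40.1% of all genes differed and 21.6% were higher. The call for Sqle was lost without any 1 of the saline pools. None of the 3 was called by DESeq2 (adjusted p = 0.11 for Idi1 and 0.0997 for Hmgcs1) or in cells of 4000 to 8000 UMIs (adjusted p = 0.089 and 0.077), although each value there was above 0. At 5 mg/kg Idi1 alone of the 8 passed (0.34 ± 0.13, adjusted p = 0.046), where 34.0% of all genes differed and 17.7% were higher, and it was lost without any 1 of the saline or 5 mg/kg pools, by DESeq2 and in cells of 4000 to 8000 UMIs. At 50 mg/kg CD8+ T cells were lower in Cyp51 (-0.71 ± 0.11, adjusted p = 1.4e-05), Sqle (-0.57 ± 0.12, adjusted p = 0.0009), Fdft1 (-0.33 ± 0.09, adjusted p = 0.0049) and Idi1 (-0.31 ± 0.11, adjusted p = 0.029), where 30.1% of all genes differed and 13.8% were lower. Without the first pool at 50 mg/kg Fdft1 (adjusted p = 0.061) and Sqle (adjusted p = 0.065) fell short, and without the third Idi1 did (-0.15, adjusted p = 0.49). DESeq2 called Cyp51 alone at this dose, and in cells of 4000 to 8000 UMIs Fdft1 fell short (adjusted p = 0.092). The share of cycling cells differed between the lineages: 19.6% to 23.9% of CD4+ and 52.2% to 54.0% of CD8+ T cells with saline, and 30.8% to 34.5% and 38.4% to 52.3% at 50 mg/kg. Outside the cycling clusters none of the 3 genes higher in CD8+ saline cells was called: Hmgcs1 kept its direction (0.14), while Idi1 (-0.24) and Sqle (-0.12) turned. Cyp51 was lower there in CD8+ than in CD4+ T cells with saline (-0.51, adjusted p = 0.012).

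Across the authors' clusters, 13 of CD4+ and 9 of CD8+ T cells, the 8 genes were described by their summed CPM in each pool with at least 10 cells of the cluster, and no test was made. Averaged over pools of all groups, the highest level in both lineages lay in a cycling cluster that the study describes as Cd226hi effector cells. CD8+ cluster C4 was at 268 ± 50 CPM (SD, n = 6 pools) and CD4+ cluster C6 at 283 ± 64 CPM (n = 8 pools). The CD8+ order then ran C2 (160 ± 41), C8 (143 ± 60), C3 (126 ± 37), C0 (122 ± 48), C6 (114 ± 31), C1 (105 ± 13), C5 (85.6 ± 31.5) and C7 (72.5 ± 22.1). C4 stood above C2 by more than their spread, and from C2 to C7 each neighbour lay within the spread of the next. C7 is the cluster that the study calls naive. These means pool the treatment groups, C4 had no pool with 10 cells at 50 mg/kg, and the order was not the same in each group. With saline C7 was at 35.99 to 70.2 CPM and C0 at 168 to 199 CPM, while at 50 mg/kg C7 was at 92.1 to 104 CPM and C0 at 78.9 to 98.9 CPM.

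Among CD4+ T cells the C4 cluster, described as follicular helper cells, came next at 271 ± 160 CPM, followed by C11 at 206 ± 116 CPM (n = 5 pools). The other 10 clusters lay between 101 and 157 CPM, with no neighbours apart by more than their spread. The spread of C4 came from the treatment groups: saline pools were at 164 ± 13 CPM, those of the lower dose at 175 ± 37 CPM and those of the higher dose at 474.5 ± 90.5 CPM (n = 3 pools each). At the higher dose its pools lay at 383 to 564 CPM, against 203 and 401 CPM in the 2 pools of C6. At the lower dose the 1 pool of C11 with enough cells was at 384 CPM (11 cells), above C6 at 242 to 329 CPM. The C4 value at the higher dose rests on 45 cells and 54 UMIs of the 8 genes, and the members did not pass the filter for a test in C4. C1, described as Cd226lo effector cells, was at 126 ± 11, 126 ± 4 and 125 ± 4 CPM in the 3 groups.

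The clusters with the highest level were also those that became rare. CD8+ C4 held 21.9% of CD8+ T cells and 45.3% of their UMIs of the 8 genes with saline. It held 3.04% of cells and 4.26% of these UMIs at 5 mg/kg, and 0.566% and 0.981% at 50 mg/kg. CD4+ C6 held 10.9% of cells and 27.0% of the UMIs with saline and 1.11% and 1.33% at 50 mg/kg. Within CD8+ C4 the level per total UMIs was 312 ± 8 CPM in saline pools against 225 ± 22 CPM at the lower dose. The pools at 50 mg/kg had fewer than 10 cells each. Of the 7 genes that could be tested in CD8+ C4 at the lower dose none passed, where 3.21% of all genes did, and Cyp51 was at -0.75 ± 0.37 (adjusted p = 0.32).

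**Figure D3:**
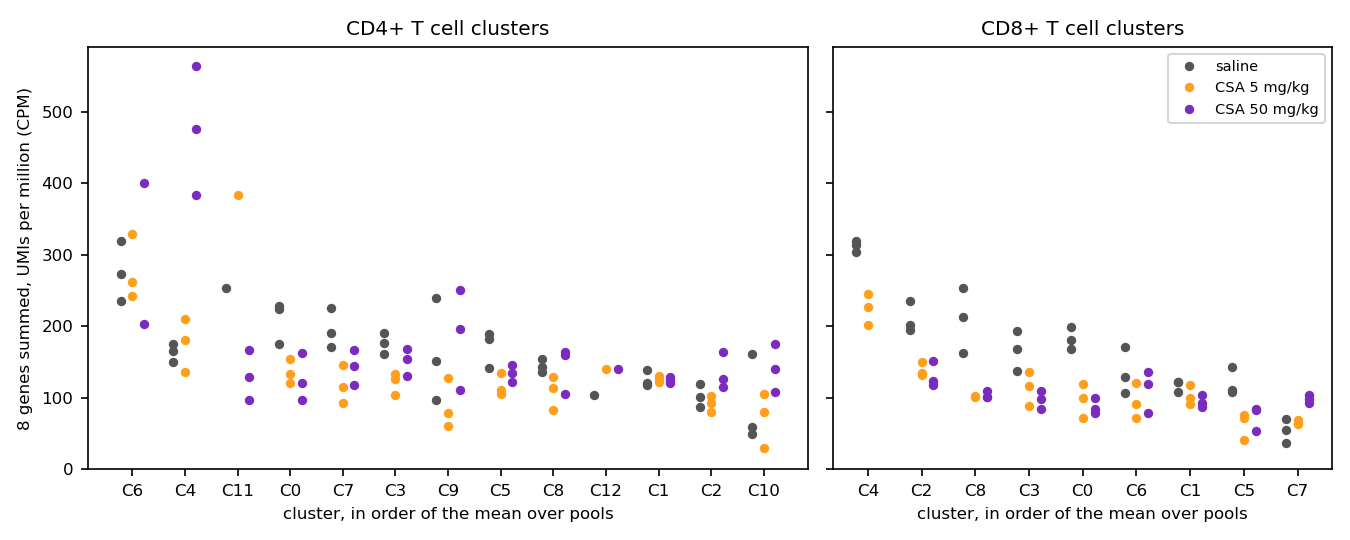
Summed CPM of the 8 genes, out of all UMIs of the cluster (linear axis from 0), in each pool with at least 10 cells, by cluster and treatment group, in order of the mean over pools. CD8+ C4 (268 CPM) and CD4+ C6 (283 CPM) lead, the CD4+ C4 points at 50 mg/kg lie above its other points, and in CD8+ C2 and C0 the saline points lie above the CSA points.

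The cycling clusters, in which 12 cell cycle genes summed to 3992 to 8284 CPM (CD4+) and 3612 to 8370 CPM (CD8+) against 523 to 1302 and 514 to 1394 CPM in the rest, had more of these transcripts within a pool. Their summed CD8+ level was higher in cycling than in other cells in 9 of 9 pools (168 ± 63 against 110 ± 30 CPM) and in CD4+ T cells in 8 of 9 (171 ± 44 against 138 ± 24 CPM). The largest median log2 difference was that of Idi1 in CD8+ T cells (1.34, higher in 9 of 9 pools) and that of Sqle in CD4+ T cells (0.66, 8 of 9), where Idi1 was at 0.63 (9 of 9). Insig1 was at 0.20 (CD8+) and 0.06 (CD4+). Both kinds of cell were lower with CSA in CD8+ T cells: the cycling cells of saline pools were at 250 ± 11 CPM, and those of the lower and higher dose at 135 ± 12 and 119 ± 14.5 CPM, while other cells were at 148 ± 9.5, 86.8 ± 6.9 and 94.9 ± 7.8 CPM. Cycling CD4+ cells were at 228 ± 17, 139 ± 10 and 147 ± 10 CPM and other cells at 163 ± 7, 114 ± 8 and 136 ± 18 CPM. These levels are per total UMIs, without TMM scaling. On that scale the median log2 change of all genes was itself -0.43 and -0.53 in CD8+ pools at 5 and 50 mg/kg. In CD4+ pools it was -0.37 and -0.45.

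Tests within single clusters were made where at least 2 pools of each group had 10 cells. For CD8+ T cells 34 pairs of a gene and a cluster could be tested at the lower dose and 27 at the higher, of which 6 and 9 were called, all lower with CSA. Over all genes and clusters 20.4% and 43.4% of pairs were called, so that the shares here were not above those of all genes. At 5 mg/kg the cycling cluster C2 held 4 of the 6 calls, Cyp51 (-0.52 ± 0.17), Idi1 (-0.52 ± 0.17), Sqle (-0.65 ± 0.23) and Insig1 (-0.83 ± 0.27), where 37.5% of all genes were called. The others were Insig1 in C3 (-0.91 ± 0.35, where 36.1% of all genes were called) and Hmgcs1 in C0 (-1.36 ± 0.36, where 16.5% were). In C2, Cyp51 (-0.56 ± 0.17, adjusted p = 0.0064) and Idi1 (-0.63 ± 0.16, adjusted p = 0.0024) fell at 50 mg/kg, where 54.8% of all genes were called. In C3, another cycling cluster, Cyp51 (-0.96 ± 0.31), Idi1 (-1.02 ± 0.27) and Insig1 (-1.34 ± 0.32) fell, where 58.9% of all genes were called. In the Cd226hi effector cluster C0, Insig1 (-1.91 ± 0.44, adjusted p = 0.00018), Sqle (-1.28 ± 0.47), Idi1 (-1.18 ± 0.38) and Hmgcs1 (-0.67 ± 0.20) fell, where 58.4% were. Idi1 thus fell in each of the 3 CD8+ clusters in which it could be tested at this dose.

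For CD4+ T cells 28 pairs were tested at each dose, and 1 and 5 were called, where 13.0% and 30.2% of all pairs were called. These shares too were not above those of all genes. In cluster C0, the CD4+ Cd226hi effector cells, Insig1 (-1.82 ± 0.39), Idi1 (-0.74 ± 0.32, adjusted p = 0.048) and Hmgcs1 (-0.52 ± 0.22, adjusted p = 0.035) fell at 50 mg/kg, where 54.8% of all genes were called. Idi1 also fell there at 5 mg/kg (-1.299 ± 0.39, adjusted p = 0.016), where 16.2% were. Cyp51 rose in C2, described as Tcf7hi precursor-like cells (1.64 ± 0.41, adjusted p = 0.0025, where 22.5% of all genes were called), and Fdft1 in C7, described as cytotoxic cells (1.305 ± 0.38, adjusted p = 0.0097, where 36.6% were). In C0 at 50 mg/kg the other genes tested, Sqle (0.44), Cyp51 (0.25) and Fdft1 (0.11), were above 0 and did not pass. Clusters were not tested against each other, so these calls show no difference between clusters. These within-cluster counts depend on the test: DESeq2 called none of the CD4+ or CD8+ pairs at 5 mg/kg and 2 of the CD4+ pairs at 50 mg/kg.

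Levels were also recomputed with the mean cluster shares of the saline pools, over the 7 CD8+ and 10 CD4+ clusters with at least 10 cells in each pool. CD8+ C4 and CD4+ C6 are not among them, so these ratios do not cover the fall in the shares of those clusters. In the lowest pool the clusters used held 64.9% of CD8+ and 80.9% of CD4+ UMIs. Levels were divided by the TMM factor of the whole pool. The part of this scaling and of the clusters left out in differences from the tested changes was not tested. In CD8+ T cells at 50 mg/kg, the log2 ratio to saline moved from -0.45 to -0.49 for Idi1, from -0.33 to -0.41 for Cyp51, from -0.78 to -0.87 for Insig1 and from -0.17 to -0.34 for Sqle. The ratios were smaller in size than the tested changes over all CD8+ cells for Idi1 (-0.85), Cyp51 (-0.90) and Sqle (-0.58). Sqle with own shares overlapped its saline pools. Hmgcs1, tested at -0.35, was at -0.06 with own and -0.13 with saline shares, overlapping saline in each. Fdft1 and Lss, tested at -0.10 and -0.13, were at 0.18 and 0.34 with own and 0.18 and 0.26 with saline shares. The CD4+ ratio moved from 0.21 to 0.91 for Cyp51, from 0.02 to 0.60 for Hmgcs1 and from 0.19 to 0.66 for Idi1. Those values rest on the 45 C4 cells: without C4 the ratios at fixed shares were 0.27, -0.05 and -0.06.

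**Figure D4:**
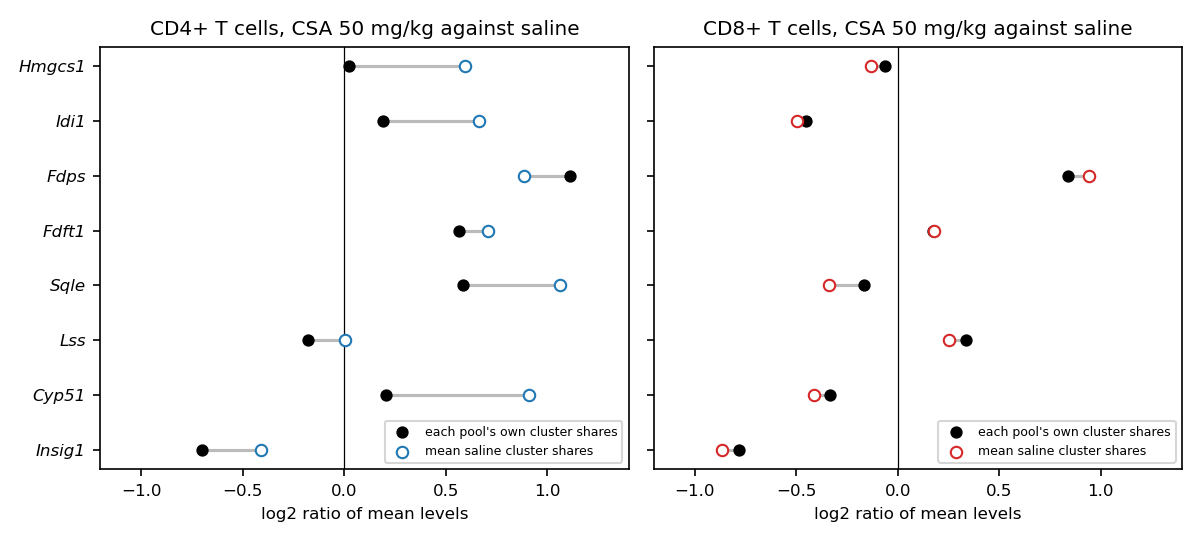
Log2 ratio of the mean level at 50 mg/kg to that with saline for each gene, with the cluster shares of each pool (black) and with the mean saline shares (open), over clusters with at least 10 cells in all pools. CD8+ C4 and CD4+ C6 are left out, so the fall in their shares is not covered. The CD8+ points of Idi1 nearly coincide (-0.45 and -0.49), while the CD4+ points of Cyp51 move from 0.21 to 0.91, which falls to 0.27 without cluster C4.

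The other genes of the pathway were read from lists. Their counts are read against the 37.1% higher and 36.9% lower of all genes in CD8+ T cells and the 34.7% and 35.8% in CD4+ T cells at 50 mg/kg. Of 14 other sterol synthesis enzymes, 4 rose and 5 fell in CD8+ T cells at that dose, with a median of -0.08, and 6 rose and 2 fell in CD4+ T cells, with a median of 0.27. With total UMI scaling 0 rose and 9 fell in CD8+ and 3 rose and 7 fell in CD4+ T cells. At 5 mg/kg 4 rose and 6 fell in CD8+ T cells, where 29.9% of all genes rose and 30.3% fell, and 4 rose and 3 fell in CD4+ T cells, where 26.1% and 25.6% did. Scaled to total UMIs the lower dose gave 0 that rose, and 9 (CD8+) and 7 (CD4+) that fell. With TMM the changes of the 14 at 50 mg/kg ran from -1.89 to 0.75 in CD8+ and from -0.50 to 1.11 in CD4+ T cells. The enzymes named next were all among those that rose in at least 1 lineage, and those that fell are not named. Ebp, the sterol isomerase, rose in both lineages at 50 mg/kg (0.72 ± 0.05 in CD4+ and 0.61 ± 0.05 in CD8+). Msmo1, which acts after Cyp51, rose in CD4+ T cells (0.69 ± 0.11) and was at 0.23 ± 0.12 in CD8+, a value that turned to -0.30 with total UMI scaling. Mvk, Pmvk and Mvd carry mevalonate to the substrate of Idi1 and were picked after their values were seen. With TMM they rose in both lineages at both doses, by 0.38 to 1.11. Pmvk in CD8+ T cells was at -0.04 and -0.16 with total UMI scaling. On that scale none of the 14 enzymes, Ebp included, was called higher in CD8+ T cells at either dose. The same held in CD4+ T cells at 5 mg/kg.

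Of 6 genes of SREBP control beside Insig1, 2 rose and 3 fell in CD8+ and 2 rose and 2 fell in CD4+ T cells at 50 mg/kg, with medians of -0.22 and -0.12. With total UMI scaling 0 rose, while 5 (CD8+) and 4 (CD4+) fell. Srebf2, which encodes SREBP2, changed direction with dose: it fell at 5 mg/kg (-0.54 ± 0.06 in CD8+ and -0.22 ± 0.09 in CD4+) and rose at 50 mg/kg (0.23 ± 0.06 and 0.52 ± 0.08), although with total UMI scaling the CD8+ value at 50 mg/kg was -0.30 and the CD4+ value 0.08. Insig2, the relative of Insig1 that is no SREBP target, rose at 50 mg/kg (0.53 ± 0.10 and 0.58 ± 0.10, against 0.0023 and 0.14 with total UMI scaling). Mbtps2, a protease that releases SREBP, fell (-0.88 ± 0.12 and -0.84 ± 0.15). Scap, the SREBP carrier, fell in CD8+ T cells (-0.44 ± 0.11) and was at -0.24 ± 0.12 in CD4+.

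Of 13 genes of sterol uptake, storage, efflux and the LXR receptors, 3 rose and 6 fell in CD8+ and 4 rose and 7 fell in CD4+ T cells at 50 mg/kg, with medians of -0.21 and -0.30. With total UMI scaling 1 rose and 8 fell in CD8+ and 2 rose and 7 fell in CD4+ T cells. The LXR targets Abcg1, a sterol exporter, and Mylip, which degrades lipoprotein receptors, fell in CD4+ T cells (-1.24 ± 0.10 and -1.04 ± 0.10). Abcg1 in CD8+ T cells was at -0.27 ± 0.14 and did not pass, and Mylip fell by 0.23 ± 0.10. Abca1, another exporter and LXR target named after its values were seen, was at 5.25 ± 1.00 CPM in CD4+ saline pools and 0.80 ± 0.27 CPM at 50 mg/kg (-2.68 ± 0.33). Npc2, a lysosomal cholesterol carrier, rose in both lineages (0.73 ± 0.04 in CD4+ and 0.87 ± 0.05 in CD8+), and its partner Npc1 fell in both (-0.77 in CD4+ and -0.80 in CD8+).

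Fatty acid synthesis shares the SREBP system. Among CD8+ T cells 7 of 10 tested genes fell and 3 rose at 50 mg/kg, and in CD4+ T cells 6 of 9 fell and 2 rose, with medians of -0.38 and -0.33. Scaled to total UMIs 1 rose and 7 fell in CD8+ and 2 rose and 6 fell in CD4+ T cells. Acaca, the rate-limiting carboxylase, fell by 1.62 ± 0.10 in CD8+ and 1.41 ± 0.16 in CD4+ T cells. Fasn, the fatty acid synthase, fell by 1.31 ± 0.09 and 1.19 ± 0.11, and the desaturase Scd2 by 0.76 ± 0.10 and 1.08 ± 0.10. Acss2, which makes acetyl-CoA from acetate, rose (0.74 ± 0.15 and 0.79 ± 0.11). Scd1, a desaturase also named after its values were seen, had a log2 change of 5.18 ± 0.68 in CD8+ T cells, from a level near 0 with saline (0.034 ± 0.058 CPM) to 1.88 ± 0.45 CPM. Of 12 genes of the isoprenoid branch, which uses farnesyl units for proteins and ubiquinone, 4 rose and 5 fell in CD8+ and 3 rose and 4 fell in CD4+ T cells, with medians of -0.10 and -0.14, while with total UMI scaling 0 rose and 9 fell in each lineage. Rabggta, a subunit of the enzyme that attaches geranylgeranyl groups to Rab proteins, rose in CD8+ T cells (0.74 ± 0.09), while Pdss2 (-0.83 ± 0.12), Nus1 (-0.70 ± 0.07) and Pggt1b (-0.49 ± 0.09) fell.

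**Figure D5:**
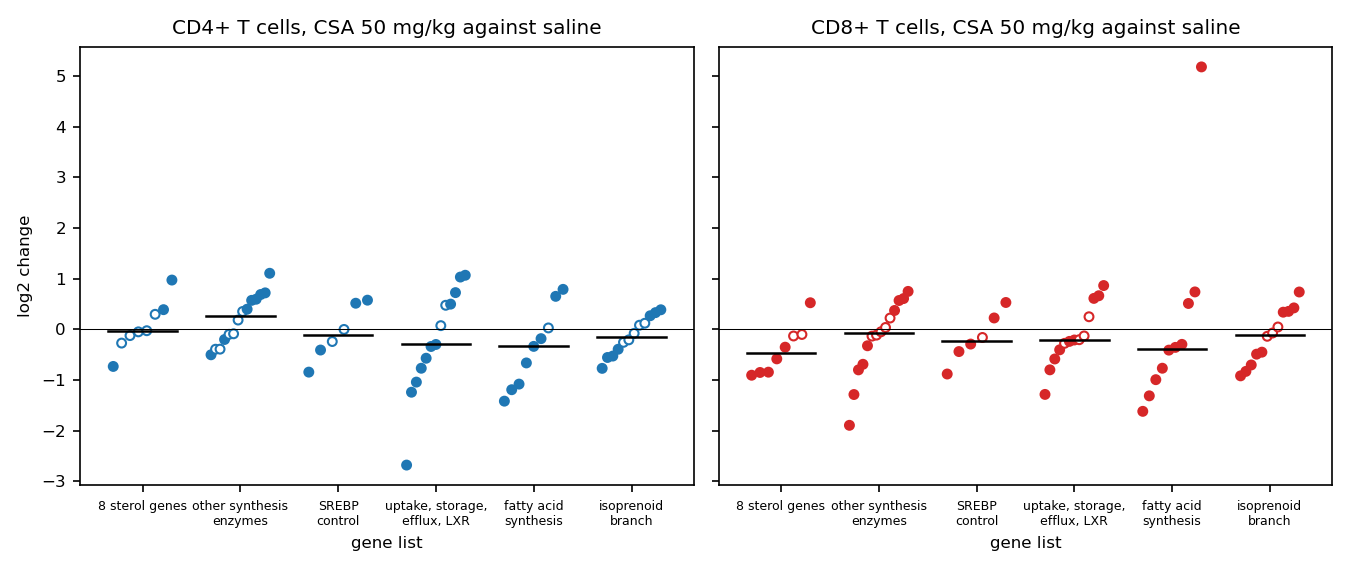
Log2 change at 50 mg/kg against saline of the 8 genes and of 5 lists of related genes, in CD4+ and CD8+ T cells; each point is a gene, filled points have an edgeR adjusted p under 0.05, and lines are medians. The highest CD8+ point is Scd1 and the lowest CD4+ point Abca1. The median of the 8 genes is -0.46 in CD8+ and -0.04 in CD4+ T cells, and that of the other synthesis enzymes is -0.08 and 0.27.

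Within each lineage the cell cycle genes themselves moved in both directions. At 50 mg/kg 9 of 12 rose and 2 fell in CD4+ T cells, and 4 rose and 5 fell in CD8+ T cells. With total UMI scaling 4 rose and 3 fell in CD4+ T cells, and 1 rose and 10 fell in CD8+ T cells. Mki67 fell by 1.17 ± 0.08 in CD4+ and 1.89 ± 0.07 in CD8+ T cells, and Top2a by 0.45 ± 0.05 and 1.13 ± 0.05. Birc5 and Stmn1 rose in both lineages, by 0.94 ± 0.05 and 0.92 ± 0.04 in CD4+ T cells. Between the lineages they moved 1 way. In the interaction at 50 mg/kg 12 of 12 were called lower in CD8+, where 10.5% of all genes were. Their median there was -0.44, beside -0.50 for the 8 genes. With saline 12 of 12 were higher in CD8+ than in CD4+ T cells, with a median of 0.64, where 21.6% of all genes were higher.

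Over 62 profiles of a lineage, cluster and group with at least 30 cells, which share pools and differ in depth, the 8 genes were compared by their pattern. Pairwise Pearson correlations of log2(CPM + 1) had a median of 0.46 and ran from -0.07 to 0.74 over the 28 pairs. Among 6081 other genes with a mean of at least 20 CPM, the 10 most like the mean of the 8 included Sympk (r = 0.81), Clptm1 (0.81), Kif5b (0.80), Nrf1 (0.80), Cab39 (0.79), Cbfb (0.78), Coro1c (0.78), Pnn (0.77) and Stt3a (0.77). Genes of the pathway lists ranged widely. The 5 SREBP control genes at that level ran from Insig2 (-0.01) to Srebf2 (0.65), and the 7 of uptake, storage and efflux from Npc2 (-0.38) to Stard4 (0.62). Of the synthesis enzymes, Lbr was at 0.68, Ebp at 0.22 and Pmvk at 0.02, and the cycling gene Mki67 was at 0.53. These are descriptions, since profiles share pools and counts are sparse.

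The TEa cells, left out above, were few, namely 123 in the saline group, 130 in the group given the lower dose and 27 in that given the higher. Their summed level of the 8 genes was 224 CPM with saline (95% exact Poisson interval 186 to 269, covering counting error only), 127 CPM at 5 mg/kg (103 to 155) and 235 CPM at 50 mg/kg (177 to 307). The other CD4+ T cells of the same groups were at 186, 122 and 140 CPM. The TEa values are 1 sum per group and were not tested.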

How the data were processed

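Spleen T cells of 3 groups, each of 3 pools, were measured by 5′ single-cell RNA sequencing. The authors deposited UMI counts per gene and cell, with the pool, lineage, cluster and TEa call of each cell. Per the labels and the submitters' processing notes they used Cell Ranger (version not given in the sources used here), the mm10 build and Seurat 3.0.0. The mitochondrial fraction of UMIs per cell was also deposited by the authors, and its median per pool, as a percent, ran from 1.56 to 1.83. The authors marked 0 cells as doublets, no doublet caller was run, and 218 barcodes occur in more than 1 capture. Of 21204 cells, 1087 had their strongest hashtag from another pool than the assigned one.

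Counts were summed per pool and lineage without TEa cells. edgeR 4.0.16 in R 4.3.3 was run with TMM scaling, its filter on low counts and quasi-likelihood tests on all 9 pools of a lineage. The interaction between lineages was fitted on 18 libraries with the pool as a block. The SE is the absolute log2 change over the root of F. DESeq2 1.42.0, other scalings and filters, cell subsets and fits without each pool were alternatives. The fit was tested on simulated data. Clusters are the authors', the CD8+ numbers being mapped to the names in the study by their cell numbers. Tests cover the spread between pools of mice within 1 capture per group.

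Genes named by rule were the 8 listed, from each list at most 4 genes with the largest change at 50 mg/kg among those called whose mean reached 10 CPM, and the 10 genes most like the 8. Outside these rules, Mvk, Pmvk, Mvd, Abca1 and Scd1 were named after their values were seen. Lbr and Stard4 were named for their correlations with the 8 genes. Genes picked by these rules that are not named are not reported here. Members and lists were chosen with earlier results of these data known. Promoters are from RefSeq (GRCm38.p6) and gene positions from GENCODE vM21.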

Additional observations from a re-analysis of the deposited data

Results flagged for a closer look

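The change at 50 mg/kg against saline differed between CD8+ and CD4+ T cells for 5 of the 8 genes, by edgeR's test of the interaction with the pool as a block. The CD8+ change minus the CD4+ change was -0.90 for Sqle, -0.89 for Cyp51, -0.76 for Idi1, -0.52 for Fdft1 and -0.35 for Hmgcs1. Over the alternatives, the adjusted p of Cyp51 ran up to 0.11, that of Fdft1 to 0.27, those of Sqle and Idi1 to 0.38 and 0.56 and that of Hmgcs1 to 0.51. The share of cycling cells, the median UMIs per cell and the summed B cell markers moved with dose by unlike amounts in the lineages. Cd8b1 in the CD4+ pools also fell with dose. In the same interaction test 12 of 12 cell cycle genes were called lower in CD8+ as well. The part of all these in the differences was not tested beyond fits on subsets of cells. The fit on cells outside the cycling clusters called 0 of the 8 genes, and that on cells of 4000 to 8000 UMIs called 2.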

How the results depend on the processing

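Of 103 recomputed counts of called genes, 77 were within 1.5 times the reported count. Of the recomputed values of called genes, 540 kept their call, 75 lost it and 5 changed sign. Unless a value shows it, the cause of a change was not tested. Total UMI scaling, which moved the median of all genes down, called 5 genes in CD4+ T cells at 50 mg/kg, 2 (CD4+) and 1 (CD8+) between the doses and 0 between the lineages at 5 mg/kg. Within clusters it called 6 (CD4+) and 11 (CD8+) pairs at 5 mg/kg and 18 CD8+ pairs at 50 mg/kg. DESeq2 called 2 genes between the doses in CD4+ T cells, 1 in the interaction at 50 mg/kg, and 0, 0 and 1 between the lineages with saline, 5 and 50 mg/kg. Within clusters DESeq2 called 0 and 2 (CD4+) and, at 5 mg/kg, 0 (CD8+). Cells outside the cycling clusters, of which fewer entered, gave 3 and 2 called genes in CD8+ T cells at 5 and 50 mg/kg, 1 between the doses, 0 in the interaction at 50 mg/kg and 1 between the lineages with saline. Cells of 4000 to 8000 UMIs gave 2 (CD4+) and 1 (CD8+) between the doses, 2 in the interaction at 50 mg/kg, and 0 and 0 between the lineages with saline and at 5 mg/kg.

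With total UMI scaling the sign turned for Fdft1 (-0.18 and -0.048 at 5 and 50 mg/kg) and Sqle (-0.14 at 50 mg/kg) in CD4+ T cells, for Fdps (-0.041 and -0.0011) and, at 5 mg/kg, Fdft1 (-0.40) in CD8+ T cells, for Lss between the doses in CD8+ T cells (-0.034), and for Lss (-0.039) and Fdft1 (-0.057) between the lineages at 5 mg/kg. In cells of 4000 to 8000 UMIs it turned for Lss (0.11 at 5 mg/kg), Sqle (-0.016 at 50 mg/kg) and Insig1 (0.34 between the doses) in CD4+ T cells and for Fdft1 (-0.13 at 5 mg/kg) and Cyp51 (0.21 between the doses) in CD8+ T cells. In these cells it also turned between the lineages for Insig1 with saline (0.21), for Fdps (-0.047), Insig1 (0.11), Lss (-0.097) and Fdft1 (-0.14) at 5 mg/kg, and for Fdps (0.0095) and Hmgcs1 (0.0010) at 50 mg/kg. Outside the cycling clusters it turned at 50 mg/kg for Cyp51 (0.27) and Hmgcs1 (0.11) in CD4+ and Lss (0.037) and Fdft1 (0.21) in CD8+ T cells, and for Idi1 between the doses in CD8+ T cells (0.10). Between the lineages it turned there for Cyp51 (-0.51), Idi1 (-0.24) and Sqle (-0.12) with saline and for Fdps (-0.31), Fdft1 (-0.092), Idi1 (-0.37) and Hmgcs1 (-0.21) at 5 mg/kg. Insig1 between the doses in CD8+ T cells, near 0, turned with no filter on low counts (0.00077), cells of at least 2000 UMIs (0.0074) and cells whose strongest hashtag was their own pool's (0.021), and Lss in CD4+ T cells at 5 mg/kg turned with the last of these (0.016). Fdft1 between the lineages at 5 mg/kg turned with no replicate block (-0.0052) and DESeq2 (-0.0097).

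Leaving out each pool in turn gave 3 to 5 and 3 to 4 called genes in CD4+ T cells at 5 and 50 mg/kg, 5 and 5 to 6 in CD8+ T cells, and 1 to 4 (CD4+) and 0 (CD8+) between the doses. It gave 0 and 4 to 5 in the interaction at 5 and 50 mg/kg, and 2 to 3, 0 to 1 and 2 to 4 between the lineages with saline, 5 and 50 mg/kg. Within clusters it gave 0 to 3 and 4 to 6 (CD4+) and 2 to 7 and 7 to 9 (CD8+). The sign turned in at least 1 such fit for 13 values near 0 that had not been called. They were Cyp51 (-0.14 to 0.029) and Hmgcs1 (-0.11 to 0.064) at 50 mg/kg and Lss (-0.16 to 0.038) at 5 mg/kg in CD4+ T cells, Fdft1 (-0.073 to 0.088) at 5 mg/kg in CD8+ T cells, and Cyp51 (-0.33 to 0.065), Insig1 (-0.078 to 0.038) and Lss (-0.013 to 0.20) between the doses in CD8+ T cells. Between the lineages they were Fdft1 (-0.16 to 0.12), Fdps (-0.27 to 0.36) and Lss (-0.057 to 0.12) at 5 mg/kg and Hmgcs1 (-0.043 to 0.041) at 50 mg/kg, and in the interaction Fdps (-0.58 to 0.047) at 5 mg/kg and Lss (-0.082 to 0.23) at 50 mg/kg.

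Pools with the same number did not deviate together, with correlations of -0.09 to 0.07, so the numbers do not pair the groups. A replicate block by pool number gave 4, 3 and 4 called genes in CD4+ and 5, 6 and 0 in CD8+ T cells. With no replicate block the comparisons of the lineages gave 0 and 4 in the interaction at 5 and 50 mg/kg and 2, 0 and 3 with saline, 5 and 50 mg/kg. With the cluster shares of saline, 7 of 32 levels moved by more than 1 SD, and without CD4+ C4 1 of 16 did. Genes with few UMIs, Fdps and Lss above all, limit what could be detected.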
